A study of Mus musculus with 48 samples.

Results

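Transcripts of the cell division cycle were followed in mouse liver around the day for 8 genes: Rrm2, Mcm5, Ccnd1, Ccna2, Ccnb1, Wee1, Top2a and Mki67. They were taken by gene symbol, whatever their level, and are 8 of the 22354 genes in the count table. The mice were female C57BL/6J, and they fell into 25 WT animals and 23 that lack Bmal1 (Arntl), a transcription factor of the circadian clock, in adipocytes (KO). Livers were taken at zeitgeber time (ZT, hours on the former light schedule) 0, 4, 8, 12, 16 and 20, with 4 mice per genotype and time, except 5 WT and 3 KO mice at ZT16. All mice of both genotypes had spent 1 day in darkness and had fasted for 24 h, so every value below is from fasted liver, and ages ran from 28.75 to 105 weeks. The driver that deletes Bmal1 in fat cells is not given in the sources used here, and liver, where the gene is intact, does not check the genotype labels.

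Cells entering division need cyclin D to leave G1, deoxynucleotides and helicases to copy DNA, and cyclins A and B with their kinases to pass through S phase, G2 and mitosis. Most hepatocytes of an adult liver are quiescent, so transcripts of S phase and mitosis are scarce there and can also come from blood and immune cells. The circadian clock reaches this machinery, and Wee1, a kinase that holds back entry into mitosis, is a known clock-controlled gene of liver.

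Many promoters of S phase and mitosis genes carry CCAAT boxes, bound by NF-Y, and a cell cycle homology region, a motif through which the DREAM complex silences them in resting cells. The 250 bases before the start site are shown for the 5 members found in the RefSeq promoter table (build GRCm38.p6), to set the transcript that differed between genotypes (Rrm2) beside those that were high together in the same mice (Ccnb1, Top2a and Mki67) and the helicase subunit Mcm5. Each runs 5′ to 3′ on the gene's strand, with capitals marking the motifs searched on both strands: CCAAT, the homology region as TTTGAA, which the other strand reads as TTCAAA, as well as its palindromic forms TTTAAA and, with a central CG step, TTCGAA, the E2F site written as TTTCCCGC, TTTCGCGC, TTTGCCGC or TTTGGCGC, and the E-box CACGTG.
Rrm2 (chr12:24708004-24708253, + strand): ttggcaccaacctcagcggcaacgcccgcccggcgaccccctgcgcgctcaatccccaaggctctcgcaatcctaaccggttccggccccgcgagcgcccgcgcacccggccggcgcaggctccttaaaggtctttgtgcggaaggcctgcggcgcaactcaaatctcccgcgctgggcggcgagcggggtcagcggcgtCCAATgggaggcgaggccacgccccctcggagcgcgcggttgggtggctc
Ccnb1 (chr13:100786487-100786736, - strand): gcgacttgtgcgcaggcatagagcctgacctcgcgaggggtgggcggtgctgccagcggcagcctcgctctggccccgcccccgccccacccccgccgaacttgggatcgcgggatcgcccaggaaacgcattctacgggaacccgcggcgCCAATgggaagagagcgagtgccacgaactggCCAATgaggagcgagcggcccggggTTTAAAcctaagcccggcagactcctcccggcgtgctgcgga
Top2a (chr11:99024190-99024439, - strand): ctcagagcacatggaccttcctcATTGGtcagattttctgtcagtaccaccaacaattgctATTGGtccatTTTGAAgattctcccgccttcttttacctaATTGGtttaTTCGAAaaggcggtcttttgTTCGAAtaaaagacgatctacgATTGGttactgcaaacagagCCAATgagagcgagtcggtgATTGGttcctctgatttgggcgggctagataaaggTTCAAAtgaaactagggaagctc
Mki67 (chr7:135716380-135716629, - strand): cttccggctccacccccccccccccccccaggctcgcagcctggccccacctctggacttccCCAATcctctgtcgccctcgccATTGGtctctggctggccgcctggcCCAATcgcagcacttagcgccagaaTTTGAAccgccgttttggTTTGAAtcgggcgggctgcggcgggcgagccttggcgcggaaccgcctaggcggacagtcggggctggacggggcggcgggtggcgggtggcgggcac
Mcm5 (chr8:75109259-75109508, + strand): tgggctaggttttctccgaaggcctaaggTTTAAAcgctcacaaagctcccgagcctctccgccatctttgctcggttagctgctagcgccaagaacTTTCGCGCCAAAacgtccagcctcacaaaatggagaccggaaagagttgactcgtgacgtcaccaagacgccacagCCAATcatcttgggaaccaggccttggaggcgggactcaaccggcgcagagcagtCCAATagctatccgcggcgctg

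Top2a held 6 CCAAT boxes and 4 homology regions, Mki67 held 3 and 2, and Ccnb1 held 2 and 1. Rrm2 held 1 CCAAT box and no homology region, and Mcm5 held 2 CCAAT boxes, 1 homology region and 2 overlapping E2F sites. No E-box was found in these 5 windows. Of 32851 promoter windows of the same length, 33.8% held a CCAAT box, 26.2% a homology region, 1.86% an E2F site and 6.02% an E-box. A match is a description of the letters, and no binding was measured here.

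All 8 transcripts were detected, and all passed the filter on low counts that left 13646 genes. Apart from albumin, each library held 12841969 to 13009797 counts, and 1 count was worth about 0.0774 CPM, the unit of level used here, in which libraries are scaled to a common size. Counts per library were 77 to 924 for Ccnd1, 16 to 155 for Rrm2 and 5 to 124 for Wee1. They were lower for the others: 2 to 102 for Mki67, 2 to 40 for Mcm5, 4 to 34 for Ccna2, 0 to 72 for Top2a and 0 to 12 for Ccnb1. Ccnb1 had no count in 3 WT and 3 KO libraries and Top2a in 1 KO library, where a count of 0 allows a level of up to 3 counts, or 0.232 CPM. For each member, groups next to each other in the order of their means overlapped, as the plot of all 48 mice shows.

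**Figure D1:**
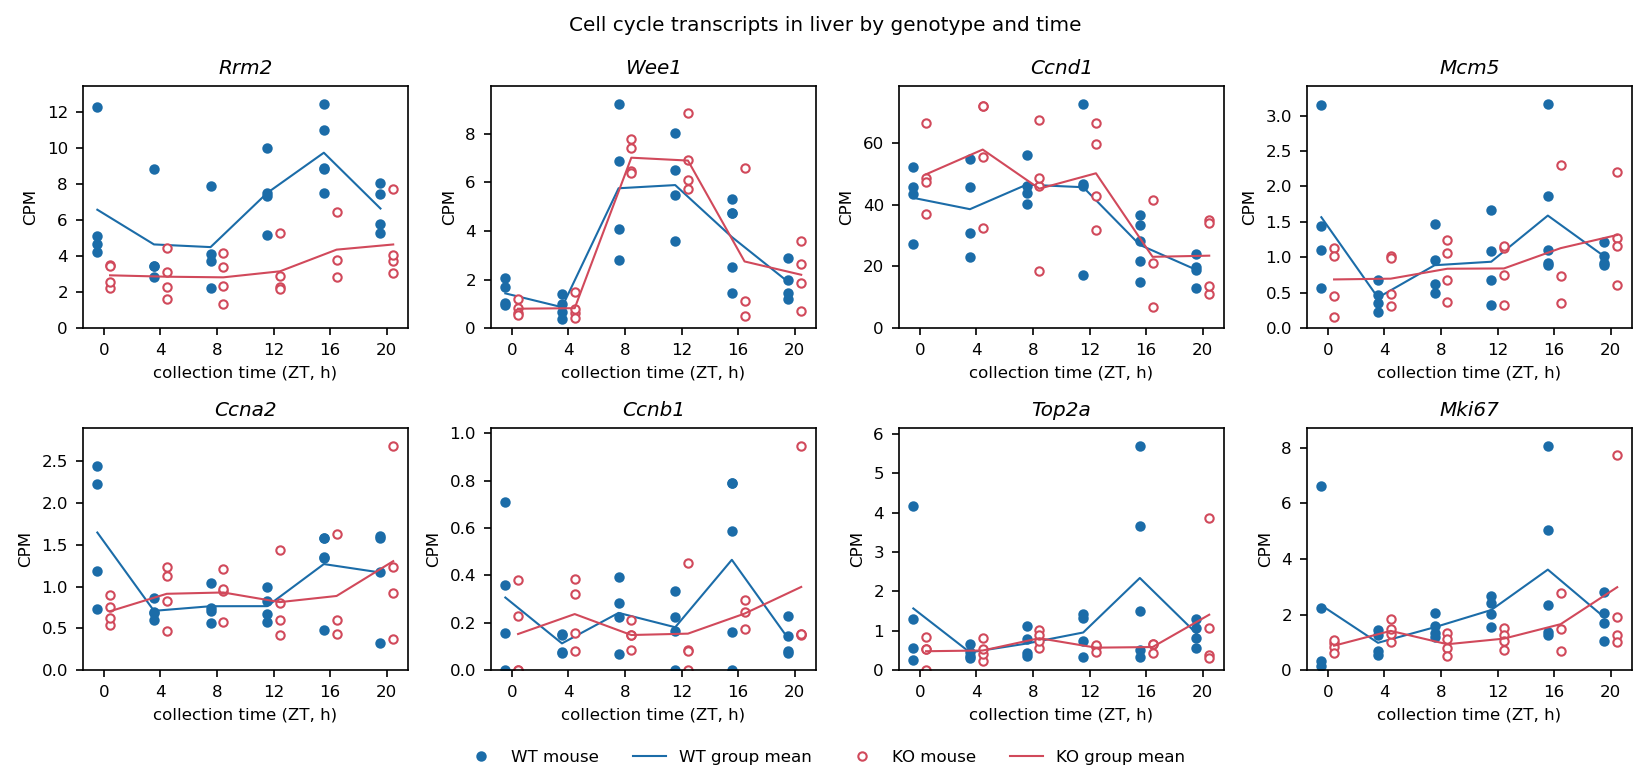
Level of each transcript (CPM, linear axis from 0) against collection time (ZT, h); each point is a mouse, WT filled and KO open, and lines join the group means. Rrm2 lies lower in KO at each time, Wee1 peaks at ZT8 and ZT12 in both genotypes, and single mice stand far above their groups for Top2a, Mki67 and Ccnb1.

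The first question was whether loss of Bmal1 in fat cells went with a difference in these liver transcripts. Of the 8, Rrm2 fell in KO liver and no other passed the test. Rrm2 encodes the small subunit of ribonucleotide reductase, which makes deoxynucleotides for DNA synthesis and is produced in S phase (mm9 chr12:25393106-25399011). Its mean was 6.73 ± 2.91 CPM over the 25 WT mice and 3.42 ± 1.5 CPM over the 23 KO mice (SD).

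At ZT0 the WT livers held 5.12, 12.3, 4.65 and 4.25 CPM of Rrm2 and the KO livers 3.52, 3.42, 2.21 and 2.57. At ZT4 the WT values were 3.45, 8.86, 2.84 and 3.44 CPM and the KO values 2.26, 4.43, 1.64 and 3.09. At ZT8 they were 3.72, 7.92, 2.25 and 4.11 CPM in WT and 3.41, 1.33, 2.34 and 4.2 in KO. In the first of these times the genotypes did not overlap, while at ZT4 and ZT8 a single WT mouse stood above the rest and the others mixed. At ZT12 WT livers gave 7.53, 10.03, 7.33 and 5.16 CPM and KO livers 5.27, 2.92, 2.26 and 2.18. At ZT16 the 5 WT mice had 12.5, 8.87, 8.85, 11.04 and 7.52 CPM and the 3 KO mice 3.79, 6.43 and 2.86. At ZT20 Rrm2 stood at 7.45, 5.27, 8.06 and 5.80 CPM in WT and at 7.74, 3.08, 3.71 and 4.07 in KO. Every WT value at ZT16 exceeded every KO value, the groups at ZT12 overlapped only between the highest KO and the lowest WT mouse, and at ZT20 a KO mouse lay among the WT mice.

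Over all times the log2 difference of Rrm2, KO minus WT, was -0.91 (SE 0.16), with a Benjamini-Hochberg adjusted p = 0.00146 over all genes tested in edgeR's quasi-likelihood test. Among all genes, 191 passed this test (1.4%), 0.777% as lower and 0.623% as higher in KO, so 1 of 8 members is a count that turns on Rrm2 alone. Rrm2 was lower in KO at 6 of 6 times, as were 4.92% of all genes. The call held in all 48 fits that left out a mouse, where the difference ran from -0.98 to -0.82. It was lost with body weight in the model, which gave -0.53 (edgeR's quasi-likelihood test, adjusted p = 0.192). KO mice were heavier (mean 24.2 g against 21.8 g), and the part of weight in the difference cannot be told apart from genotype here.

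In whole liver, fewer cells that make a transcript and less of it per cell cannot be told apart. Beside the Rrm2 difference, the summed level of 9 hepatocyte markers ran from 28077 to 48836 CPM in WT (median 37283) and from 20869 to 56855 in KO (median 33973), with none at 0 in any library. The 13 Kupffer cell and macrophage markers summed to 186 to 1695 CPM in WT (median 399) and 172 to 940 in KO (median 514). The 14 lymphocyte markers summed to 19.5 to 1400 CPM in WT (median 30.1) and 8.35 to 59.5 in KO (median 27.7). Ighm, the heavy chain of IgM, alone of these 3 lists passed (-1.63, SE 0.44, edgeR's quasi-likelihood test, adjusted p = 0.0488), and its call rests on 1 mouse. Mouse 5 of WT at ZT16 held 1190 CPM of Ighm, against 5.09 to 294 in the other 24 WT mice (median 8.60) and 3.57 to 18.5 in KO (median 8.47), and without it the difference was -0.98 (adjusted p = 0.118, edgeR). The part of these cells in the Rrm2 difference was not tested.

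At single times the Rrm2 difference lay between -0.52 (ZT20) and -1.25 (ZT12), with -1.16 at both ZT0 and ZT16, -0.70 at ZT4 and -0.66 at ZT8 (SE 0.39 to 0.42). None of the 8 members passed at any time in edgeR's quasi-likelihood test, where the share of all genes called was 0.0147% (ZT0), 0.0366% (ZT4) and 0.022% (ZT16), and 0 at the other times. At an unadjusted p under 0.05 there were 5 members at ZT0 (Rrm2, Ccna2, Top2a, Mki67 and Mcm5, all with lower KO means), 1 at ZT12 (Rrm2) and 2 at ZT16 (Rrm2 and Top2a), where 5.53%, 4.4% and 6.65% of all genes had one; at ZT4 no member did, against 23.3% of all genes. WT at ZT0 and ZT16 holds 3 of 4 mice that stood apart and are described below. Without them Rrm2 stayed under that level at ZT0, ZT12 and ZT16 (-1.28, -1.24 and -1.31, SE 0.42, 0.39 and 0.45), and so did Ccna2 at ZT0 (-0.97, SE 0.47). Top2a (-0.56, SE 0.61), Mki67 (-0.07, SE 0.52) and Mcm5 (-0.60, SE 0.56) at ZT0 and Top2a at ZT16 (-0.40, SE 0.64) were no longer under it, while Rrm2 at ZT20 (-0.89, SE 0.43) and Mki67 at ZT12 (-0.92, SE 0.45) then were. Of all genes tested without the 4 mice, 3.25% (ZT0), 4.56% (ZT12), 4.23% (ZT16) and 1.86% (ZT20) were under that level. The ranges of KO and WT did not overlap for Rrm2 at ZT0 and ZT16 and for Mki67 at ZT12, where 3.66%, 1.17% and 3.25% of all genes did so, and for no member at ZT4, ZT8 and ZT20 (7.79%, 1.67% and 1.1% of all genes). The test of whether the genotype difference changes with time called none of the 8 and 1 gene in all (0.00733%); 447 genes (3.28%) and no member had an unadjusted p under 0.05 in it.

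**Figure D2:**
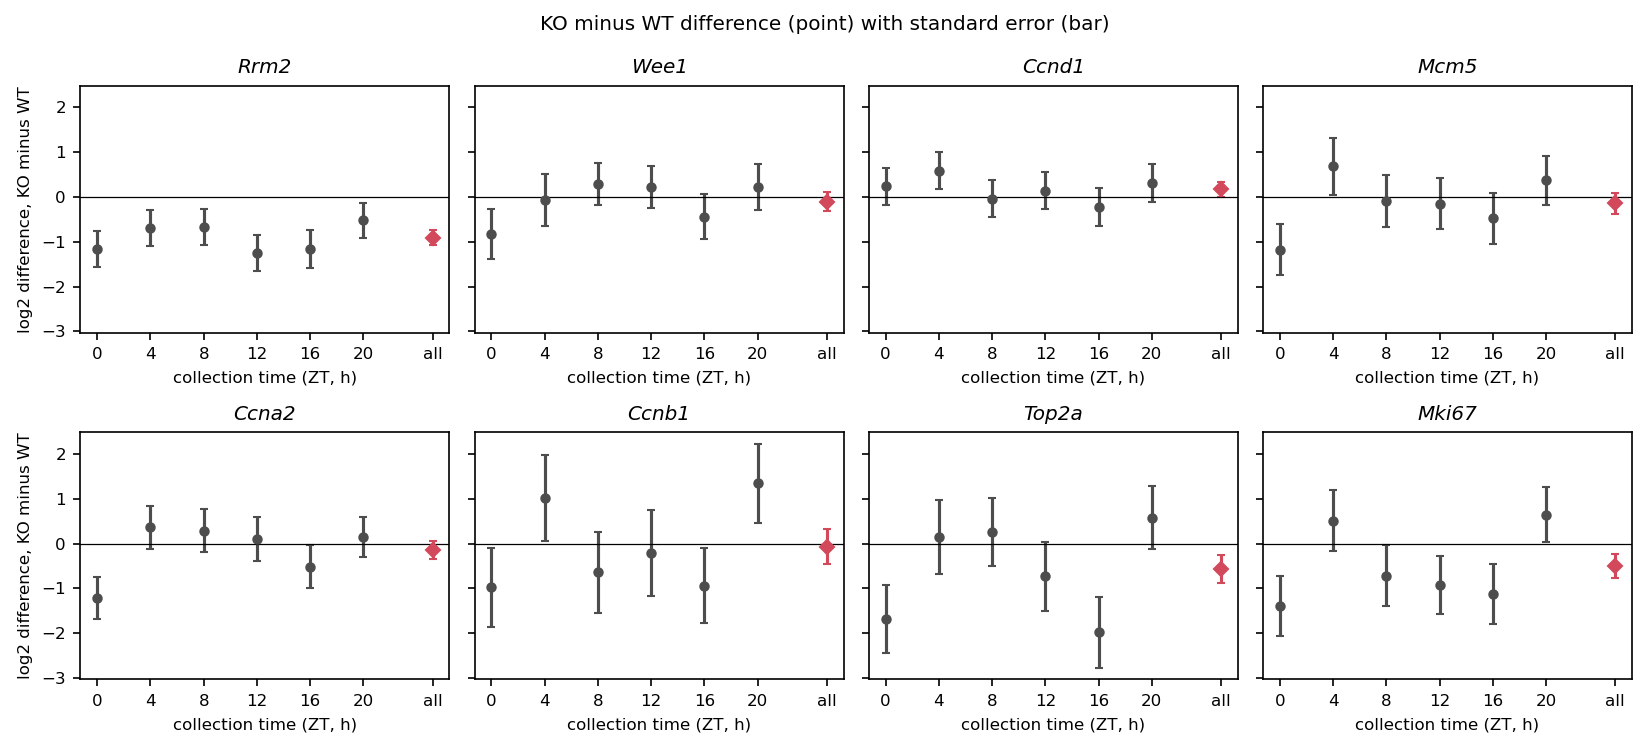
KO minus WT difference (log2, y axis) at each collection time and over all times (diamond) for each transcript, with the standard error from the edgeR fit as bars. Rrm2 is the one transcript with all 6 times below 0, and its overall value of -0.91 lies further from 0 than that of any other member.

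Mcm5, a subunit of the helicase that unwinds DNA at replication forks (mm9 chr8:77633427-77652338), averaged 1.09 ± 0.75 CPM in WT and 0.909 ± 0.549 in KO (SD, n = 25 and 23). Its difference was -0.14 (SE 0.24, edgeR's quasi-likelihood test, adjusted p = 0.764) and did not pass. Group means of Mcm5 ran from 0.430 CPM in WT at ZT4 to 1.59 in WT at ZT16.

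Ccnd1, the D-type cyclin that takes growth signals to CDK4 and CDK6 in G1, was counted deepest among the 8 (mm9 chr7:152115836-152125774). It averaged 36.1 ± 15.3 CPM in WT and 42.5 ± 19.8 in KO (SD, n = 25 and 23), a difference of 0.17 (SE 0.17, edgeR's quasi-likelihood test, adjusted p = 0.596). Ccna2, the cyclin of S phase and G2 (mm9 chr3:36463788-36471072), averaged 1.06 ± 0.54 and 0.927 ± 0.514 CPM, a difference of -0.14 (SE 0.20, adjusted p = 0.703, edgeR). Neither difference passed the test. Ccnb1, the cyclin that drives mitotic entry with CDK1 (mm9 chr13:101548605-101556525), averaged 0.249 ± 0.237 and 0.212 ± 0.203 CPM, near the level of 3 counts. Its difference of -0.07 (SE 0.40, edgeR's quasi-likelihood test, adjusted p = 0.943) has an error too wide to detect a change like that of Rrm2 at this depth. A pseudogene copy, Ccnb1-ps, exists, and how reads that match both were counted is not given in the sources used here.

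Top2a, the topoisomerase that untangles replicated chromosomes (mm9 chr11:98854257-98885503), averaged 1.20 ± 1.34 CPM in WT and 0.731 ± 0.727 in KO (SD, n = 25 and 23). Mki67, which encodes the proliferation antigen Ki-67 that coats mitotic chromosomes (mm9 chr7:142881471-142908062), averaged 2.15 ± 1.85 and 1.49 ± 1.45 CPM. The differences were -0.57 (SE 0.31, adjusted p = 0.350) and -0.50 (SE 0.27, adjusted p = 0.335) in the edgeR quasi-likelihood test, and did not pass. Without the 4 mice described below they were -0.33 and -0.28 (adjusted p = 0.475 and 0.464, edgeR).

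The second question was which of these transcripts followed the time of day. Wee1 did so in both genotypes. It encodes the kinase that phosphorylates CDK1 and keeps it inactive (mm9 chr7:117265864-117285626), and it was highest at ZT8 and ZT12 and lowest at ZT0 and ZT4. From trough to peak the fitted curve rose 5.31-fold in WT and 7.85-fold in KO.

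At ZT0 Wee1 measured 2.05, 1.71, 1.02 and 0.936 CPM in WT and 1.20, 0.837, 0.610 and 0.546 in KO. At ZT4 the values were 0.997, 0.382, 1.42 and 0.646 CPM in WT and 0.624, 0.402, 1.48 and 0.773 in KO. At ZT8 they had reached 9.23, 2.82, 4.09 and 6.90 CPM in WT and 6.47, 7.81, 6.37 and 7.43 in KO. Every mouse at ZT8 thus lay above every mouse at ZT0 and ZT4, in both genotypes. At ZT12 Wee1 gave 8.02, 5.46, 6.50 and 3.58 CPM in WT and 6.10, 6.91, 5.73 and 8.86 in KO. At ZT16 the WT mice had 5.31, 2.51, 4.75, 1.44 and 4.75 CPM and the KO mice 6.61, 1.1 and 0.490. At ZT20 levels were 1.46, 1.99, 2.90 and 1.22 CPM in WT and 0.71, 3.61, 2.62 and 1.84 in KO. The 3 KO mice at ZT16 were spread from the peak level of the day to its trough, whereas the KO mice at ZT8 and ZT12 lay close together.

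The 24 h cosine for Wee1 had an amplitude (mean to peak, log2 CPM) of 1.20 (SE 0.21) in WT with a peak at ZT12.4 (SE 0.66 h), and of 1.49 (SE 0.29) in KO with a peak at ZT11.6 (SE 0.78 h). Both passed in edgeR's quasi-likelihood test (adjusted p = 0.000641 and 5.53e-05). Among all genes 16.3% passed in WT and 17% in KO, and 2 of the 8 members did so in each genotype: Wee1 and Rrm2 in WT, Wee1 and Ccnd1 in KO. The test of a difference in rhythm between genotypes called none of the 8 and 1 gene in all (0.00733%); 363 genes and none of the 8 had an unadjusted p under 0.05. Over all times Wee1 differed between genotypes by -0.10 (SE 0.21, adjusted p = 0.812, edgeR), and without KO mouse 1 of ZT16, the high one, by -0.39 (adjusted p = 0.233, edgeR). With the 6 times as separate means in place of a curve, Wee1 alone of the 8 passed in either genotype, where 8.55% of all genes did in WT and 9.73% in KO. The clock repressor Per2 peaked at ZT13.3 in WT and ZT12.5 in KO, with amplitudes of 1.85 and 1.52.

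Rrm2 in WT had an amplitude of 0.57 (SE 0.15) with a peak at ZT16.7 (SE 1.02 h, edgeR's quasi-likelihood test, adjusted p = 0.0395), and in KO of 0.38 (SE 0.16) with a peak at ZT18.1 (adjusted p = 0.178). The WT call was lost in 12 of 48 fits that left out a mouse, in the weakest without mouse 1 of WT at ZT16 (adjusted p = 0.0869, edgeR), and without the 4 mice described below (adjusted p = 0.0611, edgeR). Ccnd1 had its fitted peak earlier in the day than Rrm2 in both genotypes.

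Ccnd1 in WT livers held 45.8, 27.3, 52.4 and 43.6 CPM at ZT0, then 30.8, 22.9, 54.9 and 45.8 at ZT4, and 40.2, 56.1, 46.1 and 43.96 at ZT8. In the later livers it stood at 72.8, 46.2, 17.2 and 46.8 CPM (ZT12), 33.6, 21.7, 28.2, 14.9 and 36.7 CPM (ZT16), and 23.96, 12.9, 19.9 and 18.8 CPM (ZT20). In WT, all 4 mice at ZT20 thus lay below all 4 at ZT8. In KO livers Ccnd1 measured 66.6, 48.6, 47.5 and 36.98 CPM at ZT0, 72.04, 32.4, 72.07 and 55.4 at ZT4, and 46.1, 18.7, 48.7 and 67.6 at ZT8. It then measured 59.8, 42.8, 31.8 and 66.7 CPM at ZT12, 21.1, 6.70 and 41.6 at ZT16, and 11.1, 35.1, 13.7 and 34.2 at ZT20. The lowest KO mouse of all was at ZT16, and the KO mice at ZT20 fell into a lower and a higher pair. Amplitudes were 0.54 (SE 0.16) in WT with a peak at ZT6.93 and 0.73 (SE 0.23) in KO with a peak at ZT5.50, with adjusted p of 0.0858 and 0.0493 (edgeR quasi-likelihood test). The KO call was lost in 32 of 48 fits that left out a mouse (in the weakest without mouse 1 of KO at ZT20, adjusted p = 0.115, edgeR), so the KO call of Ccnd1 lies at the threshold.

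**Figure D3:**
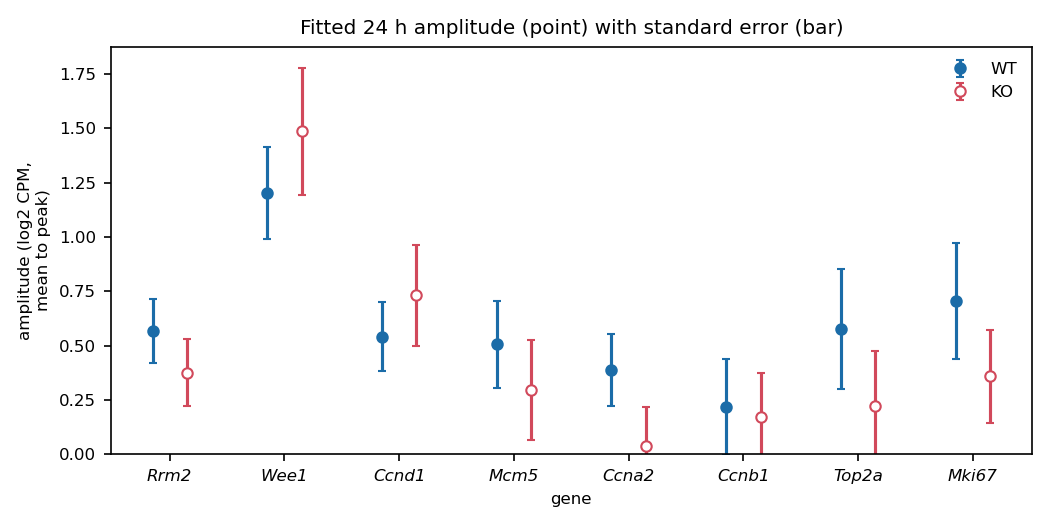
Fitted 24 h amplitude of each transcript (mean to peak, log2 CPM, y axis from 0) in WT (filled) and KO (open), with least-squares standard errors as bars. Wee1 has the highest amplitude in both genotypes (1.20 and 1.49), and the bars of the genotypes overlap or nearly meet for all 8 transcripts.

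The 5 remaining members had WT amplitudes between 0.22 (Ccnb1) and 0.70 (Mki67) and KO amplitudes between 0.04 (Ccna2) and 0.36 (Mki67). None passed, with adjusted p from 0.0953 (Top2a) to 0.511 (Ccnb1) in WT in the edgeR quasi-likelihood test. Single mice moved these values in both directions. Without mouse 3 of WT at ZT0, the cosines of Top2a and Mki67 passed in WT (adjusted p = 0.0204 and 0.0142, edgeR). Without mouse 5 of WT at ZT16 they were further from passing (adjusted p = 0.320 and 0.418, edgeR). The cosine of Ccna2 passed without mouse 3 of WT at ZT20 (adjusted p = 0.0350, edgeR). Without mouse 3 of WT at ZT0 it was further from passing (adjusted p = 0.170, edgeR).

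Top2a stood far above its usual level in 4 mice, which were picked out by these counts after they were seen: mouse 3 of WT at ZT0, mice 3 and 5 of WT at ZT16 and mouse 1 of KO at ZT20. Their Top2a counts were 53, 51, 72 and 49, against a median of 7.5 and a highest value of 18 in the other 44 mice. In the same order Mki67 counts were 84, 70, 102 and 98, against at most 39 in the others. Ccnb1 counts in these mice were 9, 11, 10 and 12, against at most 7. All 4 thus stood above every other mouse for Mki67 and Ccnb1 as well, neither of which was used to pick them. Mcm5 and Ccna2 were high in them without standing clear: Mcm5 counts were 26 to 40 (at most 31 in the others) and Ccna2 counts 20 to 34 (at most 31 in the others). Rrm2, Wee1 and Ccnd1 lay within the range of the other mice.

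**Figure D4:**
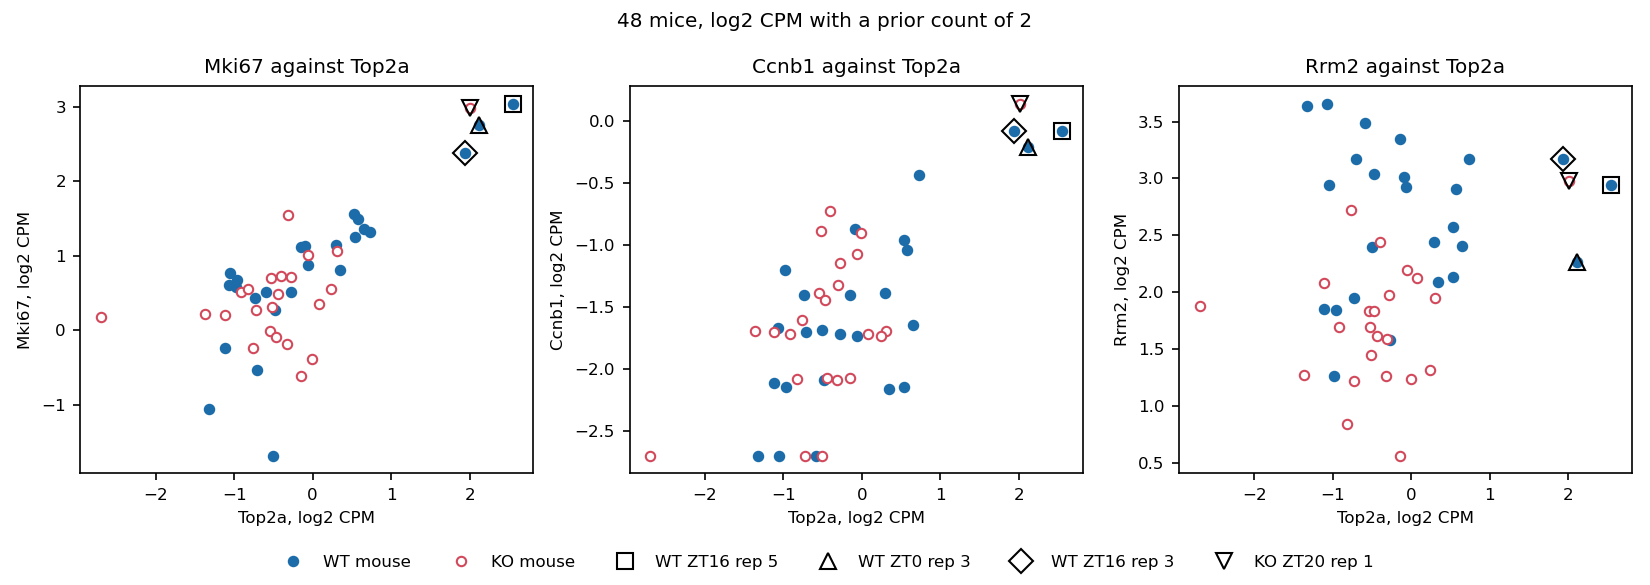
Mki67, Ccnb1 and Rrm2 (y axes) against Top2a (x axis), all log2 CPM with a prior count of 2, in 48 mice; WT filled, KO open, and the 4 mice with the highest Top2a counts outlined by a symbol each. The 4 mice sit apart at the top right for Mki67 and Ccnb1 and within the range of the others for Rrm2.

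Among other genes of mitosis and cytokinesis, 4 of 26 tested had these same mice as their highest 4: Ccnb2, the second B-type cyclin, Cdc20, an activator of the anaphase-promoting complex, Cenpe, a kinetochore motor, and Tpx2, a spindle factor, named here after their values were seen. For 12 of the 26, at least 3 of the 4 mice were among the highest 4. In the list of DNA replication and nucleotide supply 2 of 24 had these mice as their highest 4 (Mcm6 and Uhrf1), and in the G1 list 1 of 18 (E2f2). Among all 13646 genes 0.366% had these mice as their highest 4 and 2.09% at least 3 of them. The median ratio of the 4 mice to the others was 2.08 for mitosis, 1.39 for G1, 0.96 for replication and 1.04 over all genes. The lists and the choice of the 4 mice were made with values known, so these shares are a description.

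Marker genes of other cells differed among the 4 mice. Neutrophil markers, 11 genes including S100a8 and S100a9, summed to 609 CPM in the KO mouse, 488 in mouse 3 of WT at ZT0 and 129 in mouse 3 of WT at ZT16, but 3.4 in mouse 5 of WT at ZT16; the other 44 mice ran from 2.02 to 173 (median 7.26). Lymphocyte markers summed to 1400 CPM in mouse 5 of WT at ZT16 and to 20.4 to 86.5 in the other 3, against 8.35 to 352 in the 44 mice (median 28.7). Kupffer cell and macrophage markers summed to 1695 CPM in mouse 3 of WT at ZT0, above the 940 reached by any of the 44. The 10 erythroid markers summed to 449 CPM in mouse 5 of WT at ZT16, above the 405 reached by any of the 44, to 370 in mouse 3 of WT at ZT0, and to 132 to 157 in the other 2. Mouse 3 of WT at ZT16 stood above all 44 for none of these 4 lists. Of the neutrophil markers, S100a8 and S100a9 were detected in all 48 libraries, while Mpo was at 0 in 23 and Ly6g at 0 in 43. The part of any of these cells in the Top2a and Mki67 values was not tested.

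The 4 mice were 69.75, 105, 93 and 62.5 weeks old, in the order ZT0, ZT16 (mice 3 and 5) and ZT20. Within groups, the slope with age was 0.17 on the log2 scale per 10 weeks for Mki67 (SE 0.08) and 0.19 for Top2a (SE 0.10). Neither passed in the edgeR quasi-likelihood test (unadjusted p = 0.0381 and 0.0558, adjusted p = 0.792 and 0.823). In that test 5 genes passed (0.0366%, and 0.0293% as rising with age) and none of the 8 members. Without the 4 mice the slopes were -0.0039 for Mki67 and -0.075 for Top2a.

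From mouse to mouse within groups, several transcripts of S phase and mitosis were high in the same animals. After removing group means and the 4 mice, which form a cluster of their own, 5 of 28 pairs passed over the other 44 mice (permutation test, 100000 draws, two-sided, Benjamini-Hochberg over 28 pairs). The draws shuffled mice across groups and made no allowance for the group means removed, so these p-values are too small. Ccna2 with Top2a and Wee1 with Ccna2 lay nearest the threshold and may not pass a test that makes it. Ccna2 with Mki67 gave r = 0.60 and rho = 0.59 (permutation p = 4e-05 and 5e-05, adjusted 0.00112 and 0.0007). Ccnb1 with Top2a gave r = 0.55 and rho = 0.52 (permutation p = 0.00012 and 0.00048, adjusted 0.00168 and 0.00448). These relations held when the 2 mice farthest from the median of the first gene were left out, with r of 0.54 and 0.53.

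Top2a with Mki67 gave r = 0.50 and rho = 0.61 (permutation p = 0.00065 and 4e-05, adjusted 0.00607 and 0.0007), and r = 0.58 without the 2 farthest mice. Ccna2 with Top2a gave r = 0.42 and rho = 0.46 (permutation p = 0.00441 and 0.00223, adjusted 0.0247 and 0.0156), and r = 0.41 without them. In the one negative pair, Wee1, the brake on mitotic entry, was lower in mice with more Ccna2: r = -0.44 and rho = -0.41 (permutation p = 0.00285 and 0.00537, adjusted 0.0199 and 0.0301), and r = -0.38 without the 2 farthest. Rrm2 passed with none of the 7 other members, with r from -0.29 (Mcm5) to 0.08 (Ccnb1). The values share libraries, and counting error is part of the spread, the most for Ccnb1. For Ccnb1 the counting SD is 0.65 beside a within-group SD of 0.75 (log2, all 48 mice). For Ccna2 these are 0.37 and 0.60, for Mcm5 0.37 and 0.73, and for Top2a 0.38 and 0.95.

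**Figure D5:**
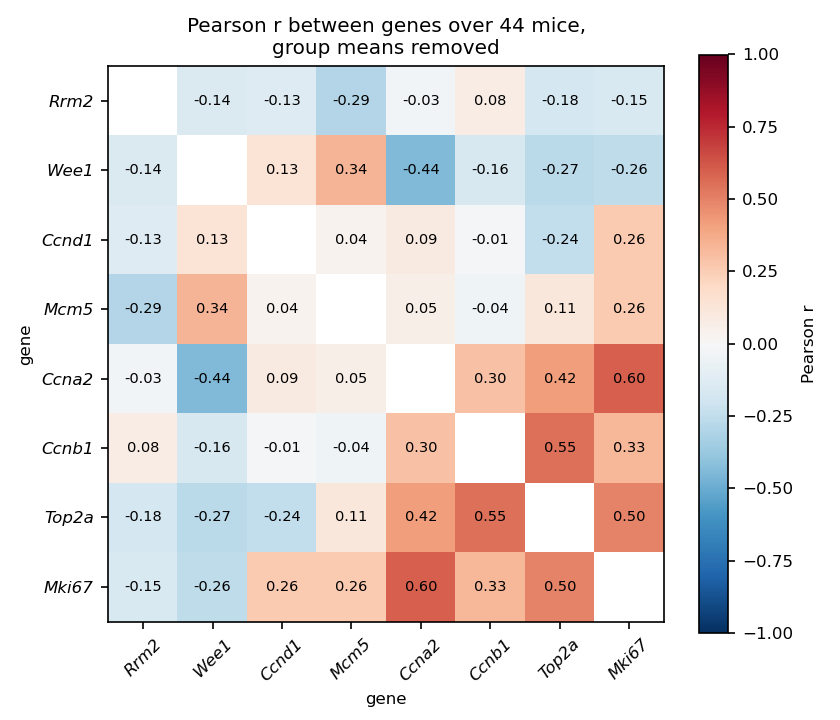
Pearson r (colour and printed value) between the log2 levels of each pair of transcripts over 44 mice, group means removed and the 4 mice with the highest Top2a counts left out. Ccna2, Ccnb1, Top2a and Mki67 form a block of positive values from 0.30 to 0.60, and the row of Rrm2 stays between -0.29 and 0.08.

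The genes whose levels ran most like each member were taken as the 5 with the highest r over the 48 libraries, among genes averaging at least 0 on the log2 CPM scale, and are given with no p because libraries share genotype and time. For Rrm2 they were Fkbp5, a co-chaperone of steroid receptors (0.78), Gja4, a gap junction protein of vessels (0.76), AA986860 (0.72), the MAP kinase phosphatase Dusp1 (0.72) and the transcription factor Cebpd (0.72). No cell cycle gene was among them. Of these, Dusp1 fell in KO by 1.64 (SE 0.18), Gja4 by 0.70 (SE 0.15), AA986860 by 0.81 (SE 0.22) and Fkbp5 by 0.65 (SE 0.18), with adjusted p of 1.71e-07, 0.00898, 0.0488 and 0.0488, while Cebpd (-0.59, SE 0.18) did not pass (0.0817, edgeR quasi-likelihood test). Fkbp5 peaked at ZT15.5 in WT and ZT17.1 in KO, and Rrm2 at ZT16.7 and ZT18.1. Of all genes 1.4% passed the genotype test over all times. Because the 5 genes were picked for following Rrm2, which fell in KO, lower KO levels and like peak times are built into the choice.

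For Wee1 the closest were A930033H14Rik (r = 0.87), the oxysterol-binding protein gene Osbpl5 (0.79), Serpina6, which encodes the corticosteroid carrier of plasma (0.77), the desmoglein Dsg1c (0.77) and BC016495 (0.76). All 5 had cosine fits that passed in both genotypes in the edgeR quasi-likelihood test, with peaks from ZT10.9 to ZT13.8. Of all genes 16.3% passed in WT and 17% in KO. Because the 5 were picked for following Wee1 over the same libraries, a rhythm with a like peak is built into the choice. For Ccnd1 they were Car5b, a mitochondrial carbonic anhydrase (0.69), Klhdc7a (0.67), Tnfrsf19 (0.67), Apol7a (0.67) and Klhl5 (0.66). For Top2a they were Mki67 (0.76) and then genes of white blood cells: Coro1a (0.75), an actin regulator, Ikzf1 (0.72), a lymphoid transcription factor, Spn (0.71), which encodes CD43, and Parvg (0.70). Those 48 libraries include the 4 mice with the highest Top2a counts, and over the other 44 the values were lower: 0.49 for Mki67, 0.53 for Coro1a, 0.56 for Ikzf1, and 0.39 for both Spn and Parvg; of these 5, Ikzf1 alone was still among the closest 5 genes.

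The wider cell cycle was described with gene lists that leave out the 8 members. No gene of the lists for G1 (18 tested), DNA replication and nucleotide supply (24), mitosis and cytokinesis (26) or checkpoint kinases and CDC25 phosphatases (7) passed the genotype test over all times, against 1.4% of all genes. Of the mitosis genes 22 of 26 had a difference below 0 (84.6%, against 51.1% of all genes), with a median of -0.33 against -0.005 over all genes. Of the 4 mice with high Top2a 3 are WT, and without them 17 of the 20 mitosis genes that then passed the filter lay below 0, with a median of -0.31. Some lists of cell markers leaned below 0 as well. Below 0 were 10 of 10 neutrophil genes (median -1.30, and 9 of 10 with -1.11 without the 4 mice). So were 10 of 11 stellate cell and fibroblast genes (-0.16) and 8 of 9 hepatocyte genes (-0.15). Of the lymphocyte entries, which hold Jchain also as Igj, 11 of 14 lay below 0 (-0.28). Without the 4 mice 7 of 13 lymphocyte genes did (-0.05). The other lists were split or leaned above 0. Below 0 were 4 of 14 Kupffer cell and macrophage entries (0.04), which hold Emr1 also as Adgre1. Erythroid genes had 2 of 6 (0.11), sinusoidal endothelium 5 of 10 (-0.0009) and cholangiocytes 3 of 5 (-0.15). None of these except Ighm passed, and their part in the values of the mitosis genes was not tested. Replication genes were split, 13 of 24 below 0 with a median of -0.02, and of the G1 genes 14 of 18 lay below 0 with a median of -0.10. Lowest in p were the centrosome kinase Nek2 (-0.62, SE 0.18, adjusted p = 0.0756), the DNA ligase Lig1 (-0.35, SE 0.12, adjusted p = 0.116), the phosphatase Cdc25b (-0.48, SE 0.16, adjusted p = 0.133) and the G1 kinase Cdk6 (0.29, SE 0.12, edgeR's quasi-likelihood test for all, adjusted p = 0.202).

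In the list of CDK inhibitors and p53 targets 1 of 9 genes passed: Btg2, an antiproliferative p53 target, fell in KO from 24.2 ± 14.4 to 13.8 ± 12.4 CPM (SD, n = 25 and 23), that is by a log2 value of -0.82 (SE 0.19, edgeR's quasi-likelihood test, adjusted p = 0.0174). Cdkn1a, which encodes the CDK inhibitor p21, had a difference of -0.65 (SE 0.26, adjusted p = 0.204, edgeR). It had the highest amplitude of the named cell cycle genes, 1.94 in WT and 2.18 in KO, with peaks at ZT20.3 and ZT20.1.

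The 24 h cosine passed for 20 of the 84 genes of these 5 lists in WT (23.8%) and 15 in KO (17.9%), against 16.3% and 17% of all genes. By list it passed for 8 of 24 replication genes in WT and 7 in KO, for 7 of 18 G1 genes in WT and 4 in KO, for 2 of 26 mitosis genes in WT and 1 in KO, for 2 of 9 CDK inhibitors and p53 targets in each genotype, and for 1 of 7 checkpoint genes in each. The helicase loading factor Mcm10 had amplitudes of 0.77 and 1.00 in WT and KO, with peaks at ZT9.70 and ZT7.05, and the thymidine kinase Tk1 had 0.84 and 0.72 with peaks at ZT14.1 and ZT12.4. Mcm7, a partner of Mcm5 in the helicase, had lower amplitudes of 0.34 and 0.37, with peaks at ZT21.7 and ZT21.5. All 3 passed in both genotypes (adjusted p of 0.000959 or less, edgeR quasi-likelihood test), at peak times spread over the day. In the G1 list Cdk6, a partner of Ccnd1, peaked at ZT8.35 in WT and ZT8.49 in KO, and the repressor E2f8 at ZT18.2 and ZT21.2. Cyclin E2 (Ccne2) passed in WT (amplitude 0.72, adjusted p = 0.00673) and not in KO (0.54, adjusted p = 0.175, edgeR), and its difference in rhythm did not pass.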

How the data were processed

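The authors deposited whole-number read counts per gene for 48 libraries of polyA liver RNA (stranded kit, per the labels' protocols). Per the submitters' processing notes, CASAVA and STAR 2.4.1d were used with build mm9. How reads were counted, and whether depth was made equal, is not given in the sources used here. Libraries were made over several days, not given per library. Groups came from the sample titles. Replicates are separate mice per the labels' ages and weights, so p-values measure the spread between mice.

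Counts were fitted with edgeR 4.0.16 (R 4.3.3, filterByExpr, TMM, quasi-likelihood test) on all 13646 genes that passed the filter, with 12 group means or, for rhythms, a 24 h cosine per genotype. Benjamini-Hochberg adjustment ran over all genes tested, at a threshold of 0.05. CPM are counts scaled by TMM library sizes, and log2 CPM used a prior count of 2. Alb, 5.66% to 14.6% of counts and marked as a special case in the table, was left out. Named genes were all members, and from each list up to 3 genes of smallest p among those called, or the 1 of smallest p where none was, for the genotype difference and the WT cosine. Of the 14 gene lists, the clock list gave Npas2 higher and Gm129 and Bhlhe40 lower of 19 tested, and the hepatocyte, Kupffer cell, neutrophil, erythroid, stellate cell, endothelium and cholangiocyte lists gave no genotype call. The members and lists were chosen with earlier results of these data known. Alternatives included DESeq2 1.42.0, other size factors, no filter, age, weight and GC slope as covariates, a replicate block and leaving out each mouse. Scripts were tested on simulated data.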

Additional observations from a re-analysis of the deposited data

Results flagged for a closer look

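In 5 of 88 gene and group pairs with 4 or 5 mice, 1 mouse lay far from the rest of its group, and chance alone gives about 1 in 20. Rrm2 reached 12.3 CPM in mouse 2 of WT at ZT0, where the next highest mouse had 5.12, and 8.86 CPM in mouse 2 of WT at ZT4, where the next had 3.45. Ccna2 was lowest in mouse 1 of WT at ZT16, at 0.482 CPM against 1.34 in the next. Mouse 1 of KO at ZT20 stood apart for Ccnb1 (0.947 CPM, next 0.154) and for Mki67 (7.74 CPM, next 1.93). For Ccnb1 that level rests on 12 counts, and it belongs to the 4 mice with the highest Top2a counts.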

How the results depend on the processing

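Over all times Rrm2 stayed past the threshold with DESeq2, RLE size factors, no filter, age or GC slope in the model, and without the 4 mice with the highest Top2a counts (the GC slope and these 4 mice were chosen after seeing the data). With body weight in the model the number of members called went from 1 to 0 (Rrm2 -0.53), the Ccna2 difference turned to 0.0034 and that of Rrm2 at ZT8 to 0.18. Leaving out a mouse kept the count at 1 and turned Ccnb1 above 0 in 3 fits (range -0.30 to 0.061). Without the 4 mice Mcm5 turned to 0.010, the age slopes to -0.075 for Top2a and -0.0039 for Mki67, and the pairs that passed went from 9 to 5 of 28. Members with a rhythm went from 2 to 1 in WT with no filter, with weight, without the 4 mice and with 6 separate means, as Rrm2 was lost (adjusted p 0.0573, 0.180, 0.0611 and 0.181). They went from 2 to 1 in KO with no filter, age, GC slope, without the 4 mice and with 6 separate means, as Ccnd1 was lost (0.0669, 0.0607, 0.0512, 0.120 and 0.0871); the cause was not tested. Leaving out a mouse gave 1 to 3 members in WT and 1 to 2 in KO. Genes called over all times were 99 to 484 without a mouse, 356 with DESeq2, 122 with no filter and 38 with weight.

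The deviations of same-numbered mice of the 2 genotypes correlated with r from -0.39 to 0.49 (median 0.12), above 0.1 in 13 of 23 pairs; 10 WT libraries correlated best with their own number, and 22 pairs had the same age. Since 10 pairs were at or under 0.1 and no label says what the number marks, the numbers were not taken as pairs. With the replicate block 1 member was called (Rrm2 -0.91, adjusted p = 0.00295) and 124 genes in all. Depth limits Ccnb1 most.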
